A study of Mus musculus with 17 samples.

Results

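Imprinted growth genes were followed in the mRNA arrays of 6 hematopoietic stem and progenitor populations of mouse bone marrow. The group held 8 genes, H19, Igf2, Dlk1, Peg3, Plagl1, Grb10, Ndn and Mest, and every non-control probe that carried a member's name was read, which gave 16 probes of 41174 on the array and 8 gene names of 28090. The mice were C57Bl/6 females aged 6 to 8 weeks, and the marrow of 10 to 20 of them was combined for a replicate sample, so that each array averages over animals. Cells were depleted of those carrying B220, CD3, Gr-1 or Ter119, enriched for c-kit and then sorted. The HSC subsets were LT-HSC (2 arrays, of which 1 is labelled as a 2-3 pool), ST-HSC (3 arrays) and MPP (3 arrays), the long-term and short-term stem cells and the multipotent progenitors. The myeloid populations were CMP, GMP and MEP (3 arrays each), the common myeloid, granulocyte-monocyte and megakaryocyte-erythroid progenitors. By the study's account the HSC subsets were taken in one FACS sort and the myeloid populations in another. A difference between these sides cannot be told apart from a difference between the sorts. None of the groups carried a transgene or a treatment according to the labels and methods.

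An imprinted gene is transcribed mainly from the maternal or mainly from the paternal chromosome, according to a methylation mark that is laid down in the germline. Many imprinted genes act on fetal growth, and several of them lie side by side in domains that share a control region. Igf2 encodes a growth factor that signals through the IGF1 receptor, and H19, its neighbour, gives a long noncoding RNA that is also the precursor of a miRNA. Plagl1 encodes a zinc finger transcription factor, Peg3 another zinc finger protein, and Dlk1 a membrane protein related to the Notch ligands. Grb10 encodes an adaptor that binds insulin and IGF1 receptors and dampens their signals, Ndn (necdin) a nuclear protein of the MAGE family with growth-restraining activity, and Mest a protein with an alpha/beta hydrolase fold. In the blood system H19 and necdin have been linked to stem cell quiescence.

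The 60-base probes decide which stretch of each RNA was read. They had 35.0 to 51.7% G and C, with a median of 41.7% against 40.0% over all 41174 probes. H19 was read by 2 probes, which lie on the minus strand of chromosome 7 in mm9, at chr7:149761769-149761828 and at chr7:149762018-149762165. The second spans 148 bases of genome with 60 bases of sequence, so that the rest of the stretch is not in the probe. Grb10 was read by 3 probes on the minus strand of chromosome 11, and the probe at chr11:11833580-11834228 likewise spans 649 bases. The single Ndn probe lies on chromosome 7 at chr7:69493847-69493906 on the plus strand, and the second Dlk1 probe on chromosome 12 at chr12:110698428-110698487 on the plus strand. These 5 sequences are shown, 5′ to 3′. They are both H19 probes, the only Ndn probe, and a Grb10 and a Dlk1 probe. The calls of the Grb10 and Dlk1 probes shown differed in part from those of the gene's leading probe.
H19 A_51_P142196: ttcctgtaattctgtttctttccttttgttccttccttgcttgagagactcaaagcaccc
H19 A_52_P571350: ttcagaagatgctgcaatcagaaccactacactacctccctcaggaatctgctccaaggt
Grb10 A_51_P187151: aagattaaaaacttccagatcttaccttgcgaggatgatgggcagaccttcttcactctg
Dlk1 A_52_P177324: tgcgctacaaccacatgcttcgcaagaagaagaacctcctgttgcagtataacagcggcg
Ndn A_52_P451644: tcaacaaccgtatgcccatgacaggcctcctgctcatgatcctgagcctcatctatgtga

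The other probes were read at these mm9 positions. Igf2 had A_51_P516826, printed in 10 spots and averaged, at chr7:149836673-149836709 on the minus strand, where 37 bases of the 60 are placed, and A_51_P516833 at chr7:149837115-149837174. The first Dlk1 probe, A_51_P135618, lies at chr12:110698667-110698726, next to the one printed above. The Plagl1 probes are A_52_P532456 at chr10:12851280-12851339 and A_51_P432034 at chr10:12849470-12849529, both on the plus strand. The remaining Grb10 probes are A_52_P115787 at chr11:11830965-11831024 and A_52_P40363 at chr11:11870574-11870633. The 3 Peg3 probes, on the minus strand of chromosome 7, are A_52_P1131620 at chr7:6674944-6675002, A_52_P235861 at chr7:6658774-6658833 and A_51_P206037 at chr7:6660440-6660499. The Mest probe, A_51_P124535, is at chr6:30698279-30698338. A gene's leading probe is its probe with the highest mean over the 17 arrays.

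Of the 16 probes, 10 were well above background on at least 6 of the 17 arrays, by the scanner software's own flag, and they stood for 6 of the 8 genes. Only the leading probes of Grb10 and Ndn were well above background on every array. The leading probe of H19 passed on 13 arrays, that of Plagl1 on 11, that of Dlk1 on 10 and that of Igf2 on 6. The Mest probe and 2 of the 3 Peg3 probes passed on none, and the third Peg3 probe and the second Igf2 probe on 1 array each. A single array had between 2 and 12 of the 16 probes well above background, and no spot of a member was saturated.

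**Figure D1:**
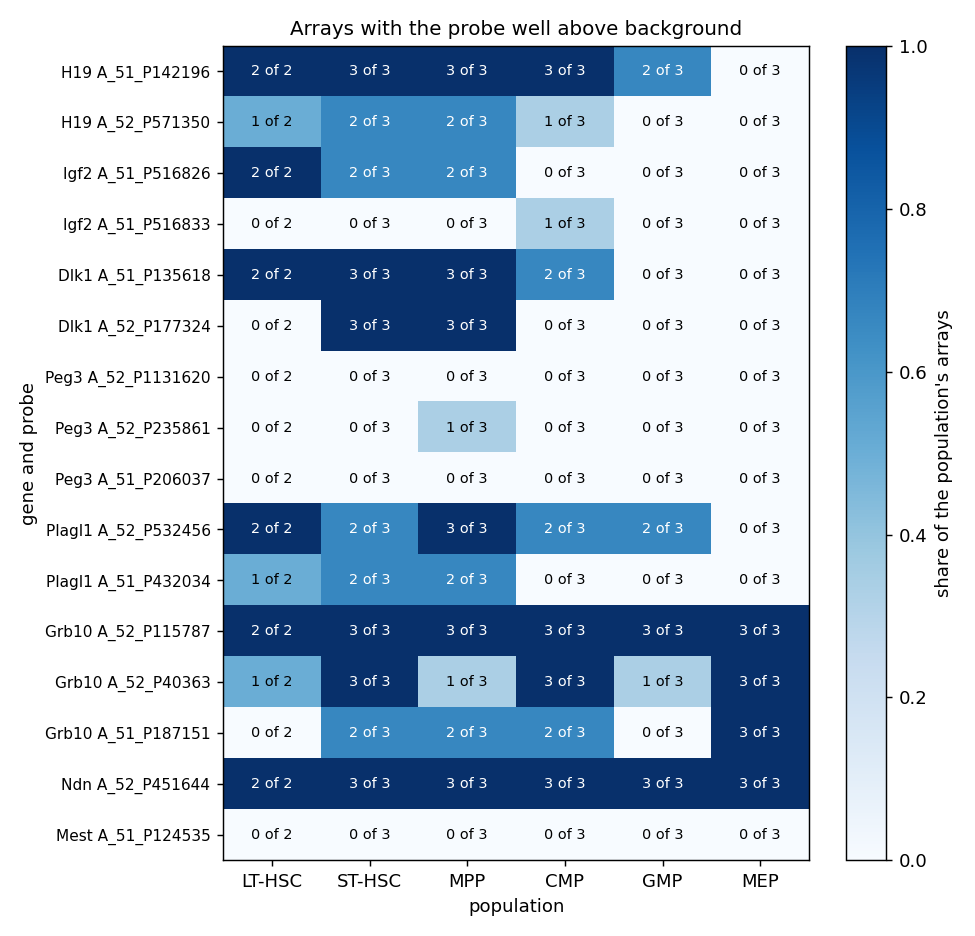
Number of arrays on which each of the 16 probes (rows) was well above background in each population (columns), with darker blue for a larger share of the population's arrays. The leading probes of Grb10 and Ndn were well above background on all arrays, those of Igf2, Dlk1 and Plagl1 on no MEP array, and Mest on no array.

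Values are normalized log2 intensities from single-colour arrays, and the number of arrays limits their precision. Scanning took place on 4 days, grouped here by calendar month into 3 runs. The 6 numbered myeloid arrays made up the first run and 6 HSC subset arrays the last. The unnumbered array of every population but LT-HSC belonged to run 2. Run 2 joined scan days 2 and 3: its MPP, CMP and GMP arrays were on slide 3 on day 2, its ST-HSC and MEP arrays on slide 4 on day 3. Of the pair for LT-HSC, the unnumbered one was dim: its 75th percentile intensity was 53.1 against 243.3 to 533.8 elsewhere, and 41.4% of its spots were well above background against 48.2 to 70.1%. Known stem cell genes rose in the HSC subsets for 7 of 7 listed markers and GMP genes were lower in MEP for 5 of 5, as the population names say. B cell, T cell and mature neutrophil genes, which the sort should have removed, were also called higher in HSC subsets than in myeloid populations, for 4 of 5, 4 of 4 and 4 of 5 markers. The mean log2 level per array was 5.53 to 7.74 against 4.57 to 5.56 over the B cell list, 5.95 to 7.51 against 3.73 to 5.83 over the T cell list and 11.92 to 15.35 against 10.98 to 13.77 over the neutrophil list. Mature erythroid genes were higher for 2 of 4 markers, the globin genes Hbb-b1 (log2 difference 1.94) and Hba-a1 (adjusted p = 0.00989). Endothelial genes were higher for 4 of 5 markers and lower for Pecam1 (log2 difference -0.40), and marrow stroma genes were higher for 2 of 9. The part of such RNA in the member results was not tested. In sorted bulk samples a smaller share of expressing cells and less RNA per cell cannot be told apart.

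The first comparison asks how stem cell populations differ from committed progenitors. Probes of H19, Igf2, Dlk1, Plagl1 and Ndn rose in the HSC subsets: 8 of the 16 probes were called higher, against 18.2% of all probes, and 1, of Grb10, was called lower, against 23.1% (limma, Benjamini-Hochberg adjusted p under 0.05 over all probes). In either direction this was 56.2% of the member probes and 41.3% of all probes. The median log2 difference over the 16 was 0.55, and over all probes -0.02. Normalization to the 75th percentile moved the median of all probes to 0.31 and the higher share of all calls from 44.0 to 64.1%; 9 member probes were then called higher and 0 lower. With scanning run as a term, 4 were higher and the Grb10 call was lost, while a Peg3 probe that no array had well above background, A_52_P1131620, was called lower (adjusted p = 0.00169), and within run 2 limma called no probe of the array, with 2 member probes higher and 1 lower at an unadjusted p under 0.05.

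The second comparison sets LT-HSC against ST-HSC and MPP. The leading Igf2 probe and 2 of the 3 Grb10 probes rose in LT-HSC, and no member probe was lower, at an unadjusted p under 0.05 either. These 3 higher probes of 16 stand beside 4.63% of all probes called higher and 2.3% called lower, or 18.8% of the member probes and 6.92% of all probes in either direction. The median of the 16 differences was 0.60 and that of all probes -0.07. Normalization to the 75th percentile moved the median of all probes to 0.21 and the higher share of all calls from 66.9 to 89.9%, with 6 member probes then called higher. With slide as a random block 1 of the 3 calls was left, that of Igf2, and within run 3 none of them was, and the LT-HSC arrays sit alone on their slide.

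The third comparison sets MEP against CMP and GMP. All 3 Grb10 probes rose in MEP and the leading Dlk1 probe was lower there. The 3 higher of 16 compare with 9.38% of all probes and the 1 lower with 10.7%, and the 25.0% called in either direction with 20.1%. The medians were 0.14 over the members and 0.08 over all probes. Over the 6 populations at once, limma's F-test called 8 of the 16 probes, or 50%, against 40.6% of all probes, and at p under 1e-06 it called 1, the leading Dlk1 probe, or 6.25% against 4.9%.

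**Figure D2:**
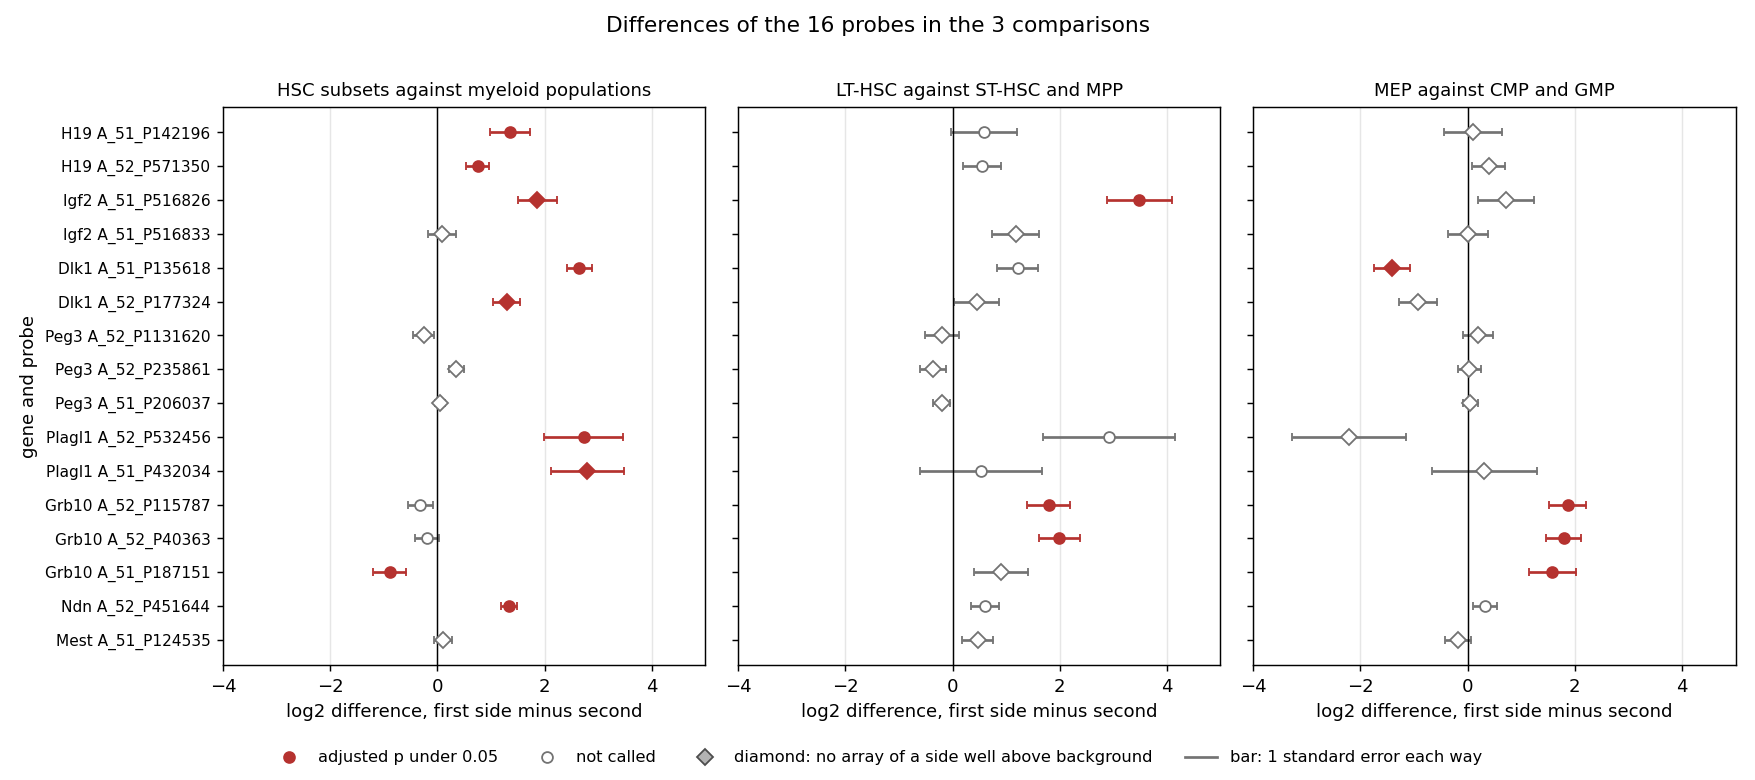
Fitted log2 differences (horizontal axis, log2 intensity) of the 16 probes in the 3 comparisons, with bars of 1 standard error each way; red marks an adjusted p under 0.05, and a diamond marks a probe that no array of a side had well above background, for which the fitted size is no bound on the fold. The 8 higher probes on the left belong to H19, Igf2, Dlk1, Plagl1 and Ndn, while those of Grb10 lead on the right.

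Among the ligands, Igf2 stood out in LT-HSC. The leading probe read 7.06 and 6.01 on the LT-HSC arrays, the second on the dim array, where the dimmest well-above-background signal was 5.67. In ST-HSC it read 2.97, 2.03 and 4.23, and in MPP 2.87, 2.93 and 3.29. Both LT-HSC values lay above every other array of the series, the next being 4.37 on an MEP array where the probe was not well above background. The log2 difference of LT-HSC from ST-HSC and MPP was 3.48 (standard error 0.61, adjusted p = 0.00472, limma), and it was 2.96 to 4.01 with each array left out. Over the other alternatives it ran from 0.89 to 3.83, so its size depends on the processing. Within run 3 it was 3.83 with an adjusted p of 0.0582, and with slide as a random block it was 3.42 with 0.0229. The second Igf2 probe read 3.75 and 2.52 in LT-HSC and 1.88 to 2.05 in ST-HSC and MPP, but it was well above background on none of these 8 arrays, and its difference was not called (adjusted p = 0.13).

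Igf2 was also called higher in HSC subsets than in myeloid populations. The leading probe ran from 2.03 through a median of 3.13 to 7.06 on the 8 HSC subset arrays. On the 9 myeloid arrays it ran from 1.83 through 2.09 to 4.37 and was well above background on none, so no fold is given (adjusted p = 0.00109). Without both LT-HSC arrays the call was lost (adjusted p = 0.175). LT-HSC had the highest mean with no overlap, ST-HSC and MPP overlapped with each other, and the myeloid populations, without a well measured value, have no order.

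Cell type markers that moved with Igf2 were read on the same arrays. The mean level over 5 B cell markers was 7.49 to 7.74 in LT-HSC and 5.53 to 6.22 in ST-HSC and MPP, and Ms4a1 was among those called higher (log2 difference 5.34). In all, 2 of the 5 were called. Over 4 T cell markers it was 7.41 to 7.51 against 5.95 to 6.30, with 1 of 4, Cd3g, called higher. Of the 7 MEP markers 5 were called higher, among them Klf1 (log2 difference 3.60) and Epor (3.33). Of the 5 mature neutrophil markers 0 were called by limma, and 3 (Camp, Ltf and S100a8) had an unadjusted p under 0.05, with a median log2 difference of 1.66 over the list. Of the 9 marrow stroma and osteoblast markers none was called higher in LT-HSC and Pdgfrb was called lower. Cxcl12 had a log2 difference of 1.01 that was not called (adjusted p = 0.328), though its arrays did not overlap, while Lepr, a defining marker of marrow stroma, was well above background on 0 of 17 arrays. Col1a2 and Pdgfrb were so on all 17, Col1a1 on 12, Cxcl12 and Bglap on 11 each, and Dcn, Pdgfra and Col3a1 on 3, 2 and 1. Of the 5 endothelial markers Cdh5 was called higher in LT-HSC (adjusted p = 0.0356), with no LT-HSC array well above background, and Pecam1 lower (log2 difference -0.75, adjusted p = 0.0454). The part of RNA from any of these cell types in the Igf2 difference was not tested.

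H19 was read at both probes as higher in the HSC subsets, and the height went with the scanning run. The leading probe read 6.30 and 6.04 in LT-HSC. It read 6.58, 6.38 and 4.13 in ST-HSC and 5.43, 6.76 and 4.21 in MPP, the last value of each being the array of run 2. The 9 myeloid arrays lay between 3.92 and 4.69 with a median of 4.46, so that the run 2 arrays of ST-HSC and MPP fell within the myeloid range and those of run 3 above it. The second probe was well above background on 5 of the 8 HSC subset and 1 of the 9 myeloid arrays, so its size rests mostly on undetected myeloid values. The log2 difference was 1.35 at the leading probe (standard error 0.37, adjusted p = 0.0109) and 0.75 at the second (0.21, adjusted p = 0.0126). With scanning run as a term these became -0.13 and -0.14 (adjusted p = 0.879 and 0.799), and within run 2 they were -0.088 and -0.21, the second from ST-HSC and MPP arrays that were not well above background. With slide as a random block neither probe was called (adjusted p = 0.0876 and 0.148). The second was also no longer called with normexp (adjusted p = 0.193), in the authors' table (0.146) or without both LT-HSC arrays (0.0723). On the 3 MEP arrays neither H19 probe was well above background. No other comparison called H19.

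**Figure D3:**
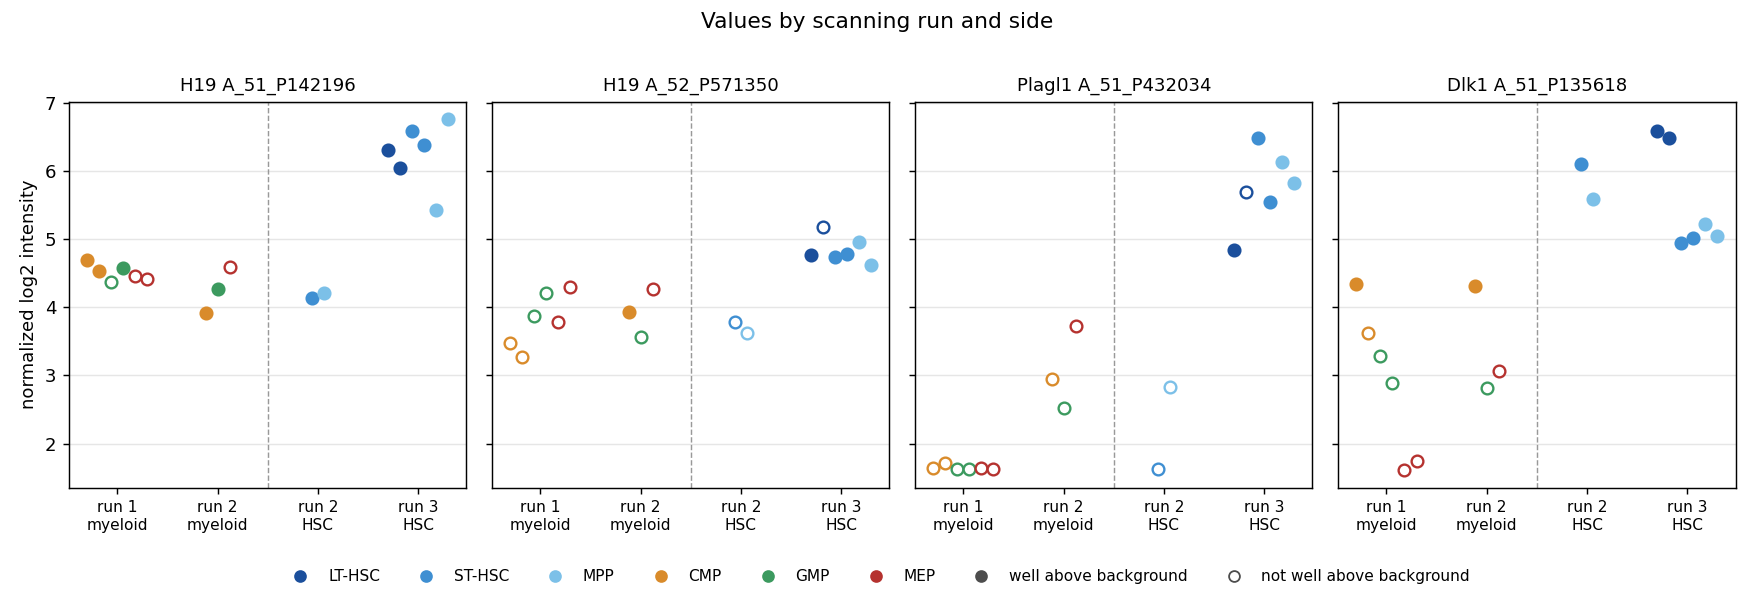
Normalized log2 intensity of 4 probes on each array, split by scanning run and by side (myeloid populations left of the dashed line, HSC subsets right), with colours for populations and open circles where the probe was not well above background. For both H19 probes and Plagl1 A_51_P432034 the run 2 arrays of HSC subsets lay with the myeloid arrays, while for Dlk1 A_51_P135618 they lay above them.

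At its leading probe Dlk1 separated the HSC subsets from the myeloid populations on every array. Its leading probe read 6.58 and 6.48 in LT-HSC. It read 4.95, 5.01 and 6.10 in ST-HSC and 5.22, 5.04 and 5.58 in MPP. It read 4.34, 3.63 and 4.32 in CMP, 3.28, 2.89 and 2.81 in GMP and 1.61, 1.75 and 3.06 in MEP. The lowest HSC subset array, 4.95, was above the highest myeloid array, 4.34, and the background flag was passed by all 8 HSC subset arrays and by 2 of the 9 myeloid arrays. The log2 difference was 2.64 (standard error 0.23, adjusted p = 2.41e-06), a size that rests on myeloid values that were mostly undetected. It was 2.94 with scanning run as a term (adjusted p = 0.000603), 2.44 within run 2 and 2.52 to 2.80 with an array left out.

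The Dlk1 means were LT-HSC (6.53 ± 0.06, SD, n = 2), ST-HSC (5.35 ± 0.65, n = 3), MPP (5.28 ± 0.28, n = 3), CMP (4.10 ± 0.41, n = 3), GMP (2.99 ± 0.25, n = 3) and MEP (2.14 ± 0.80, n = 3). ST-HSC and MPP overlapped, while LT-HSC with ST-HSC and MPP with CMP did not. No GMP or MEP array had the probe well above background, so these last populations have no order. LT-HSC lay 1.22 above ST-HSC and MPP on the log2 scale (standard error 0.39), which was not called (adjusted p = 0.0815) although the arrays did not overlap. It was called with run as a term (1.48, adjusted p = 0.0145), within run 3 (0.0412), under the 75th percentile (0.0219), with normexp (0.00637), in the authors' table (0.0365) and without the unnumbered MEP (0.0318) or ST-HSC array (0.0333). MEP was called lower than CMP and GMP (adjusted p = 0.00825). No MEP array had the probe well above background, so no fold is given, and the call was lost with normexp (adjusted p = 0.144) and without MEP replicate 1 (adjusted p = 0.0593) or 2 (0.0527). The second probe, printed above, was higher in HSC subsets as well (adjusted p = 0.000964) and was well above background on all 6 ST-HSC and MPP arrays and on no other. Its sides overlapped, since the lowest HSC subset array read 2.73 and the highest myeloid array 3.67. With replicate number as a block the call of this probe was lost (adjusted p = 0.0642).

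Plagl1 was called higher in HSC subsets at both probes, with wide spread. The leading probe read 7.02 and 10.01 in LT-HSC, the second value on the dim array. It read 7.83, 2.62 and 6.70 in ST-HSC and 6.56, 3.59 and 6.22 in MPP. It read 4.99, 4.20 and 2.90 in CMP, 4.45, 5.44 and 5.44 in GMP and 1.88, 1.81 and 3.39 in MEP. The ST-HSC and MPP arrays numbered 3 thus lay among the myeloid arrays, and every pair of neighbouring populations overlapped. The log2 difference was 2.73 (standard error 0.74, adjusted p = 0.00969), and it lost its call with run as a term (3.67, adjusted p = 0.142) and without both LT-HSC arrays (1.75, adjusted p = 0.0867).

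In MEP the leading Plagl1 probe was not called lower (adjusted p = 0.193), but it was with replicate number as a block among the numbered arrays (adjusted p = 0.0303). No MEP array had it well above background, so no fold is given.

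The other Plagl1 probe, A_51_P432034, read 4.84 to 6.48 on the 6 HSC subset arrays of run 3. On the run 2 arrays of ST-HSC and MPP it read 1.63 and 2.83, and on the 9 myeloid arrays 1.62 to 3.72, well above background on none. It was at least 1.54-fold higher in the HSC subsets against the dimmest detectable signal on the myeloid arrays (adjusted p = 0.00496). With scanning run as a term the fitted difference was -1.07 (adjusted p = 0.11) and within run 2 it was -0.83. No array of run 2, of either side, had this probe well above background, so those arrays give it no direction. Over the 17 arrays the probes of Plagl1 followed each other with Pearson's r = 0.41, against 0.79 for the H19 pair and 0.83 for the Dlk1 pair.

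**Figure D4:**
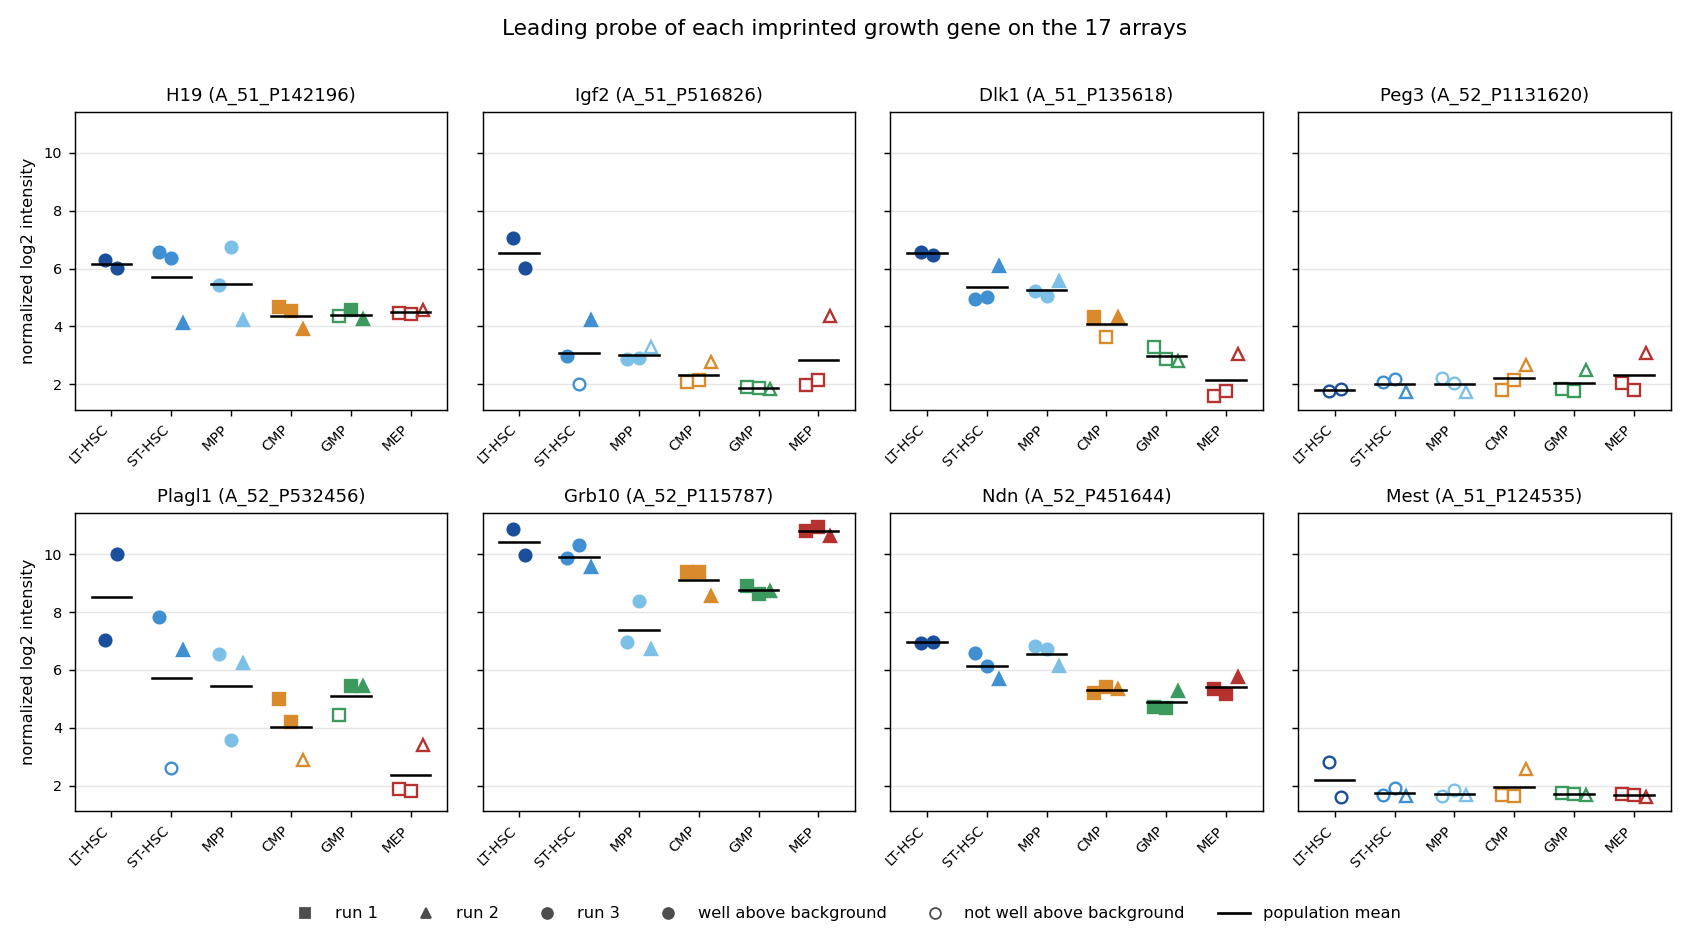
Normalized log2 intensity (vertical axis) of the leading probe of each gene on the 17 arrays, by population, with squares, triangles and circles for runs 1, 2 and 3, open symbols where the probe was not well above background, and black lines for population means. Igf2 peaked in LT-HSC, Dlk1 stepped down from LT-HSC to CMP, and Grb10 was lowest in MPP and highest in MEP.

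Grb10, the receptor adaptor, followed another order. Its leading probe read 10.82, 10.96 and 10.62 in MEP and 10.87 and 9.99 in LT-HSC. It read 9.85, 10.31 and 9.57 in ST-HSC, 9.38, 9.38 and 8.56 in CMP and 8.89, 8.64 and 8.73 in GMP. The MPP arrays, at 6.98, 8.39 and 6.72, lay below every other array. In this order MEP overlapped with LT-HSC, LT-HSC with ST-HSC and CMP with GMP, while ST-HSC did not overlap with CMP, nor GMP with MPP.

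MEP exceeded CMP and GMP by 1.87 on the log2 scale at the leading probe (standard error 0.34, adjusted p = 0.00121). The differences were 1.80 at A_52_P40363 (0.33, adjusted p = 0.00118) and 1.58 at A_51_P187151 (0.44, adjusted p = 0.0194). A_51_P187151 was well above background on 2 of the 6 CMP and GMP arrays, so its size rests mostly on undetected values there. At all 3 probes the lowest MEP array was above the highest CMP or GMP array. Within run 1 all 3 probes were called, and within run 2, with 1 MEP array, the differences were 1.98, 2.06 and 1.53. That MEP array was on another slide and scan day than the run 2 CMP and GMP arrays, so slide, day and population cannot be told apart there. The third probe lost its call without MEP replicate 1 (adjusted p = 0.0737) or 2 (0.0976) and under the 75th percentile (0.141). MEP genes moved with Grb10, since 5 of 7 listed MEP markers, such as Klf1 and Epor, and 4 of 4 mature erythroid markers were called higher in MEP. The other 2 MEP markers, Pf4 and Itga2b, which platelets and their precursors express, were called lower there (log2 differences -4.12 and -3.67).

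LT-HSC exceeded ST-HSC and MPP by 1.79 at the leading Grb10 probe (standard error 0.39, adjusted p = 0.0178) and by 1.99 at A_52_P40363 (0.38, adjusted p = 0.00824). The leading probe's means were 10.43 in LT-HSC, 9.91 in ST-HSC and 7.36 in MPP, so most of its difference lay with MPP. At the leading probe the groups overlapped, since ST-HSC reached 10.31 and the lower LT-HSC array 9.99, and the call was lost without the LT-HSC 2-3 pool (1.35, adjusted p = 0.103). At A_52_P40363 LT-HSC read 6.63 and 5.85, ST-HSC 4.71 to 5.36 and MPP 2.84 to 3.70, with no overlap, and only 1 of the LT-HSC arrays had this probe well above background. With slide as a random block neither call was left (adjusted p = 0.0943 and 0.112), nor within run 3 (0.221 and 0.128). In this comparison too 5 of 7 MEP markers were called higher, while 0 of 4 mature erythroid markers were. The mean level of the MEP markers was 9.07 to 9.69 in LT-HSC, 8.69 to 9.17 in ST-HSC and 5.83 to 7.09 in MPP. The part of MEP-type RNA in either Grb10 difference was not tested.

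Between HSC subsets and myeloid populations Grb10 differed little at the leading probe (log2 difference -0.32, standard error 0.24, adjusted p = 0.31) and at A_52_P40363 (-0.19, 0.23, adjusted p = 0.532). The probe A_51_P187151, printed above, was called lower (-0.89, standard error 0.30, adjusted p = 0.0309), but not with scanning run as a term (adjusted p = 0.155), under the 75th percentile (0.953) or in 10 of the 17 fits that left out 1 array. Without both LT-HSC arrays all 3 probes were called lower, at -0.92, -0.86 and -1.19.

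**Figure D5:**
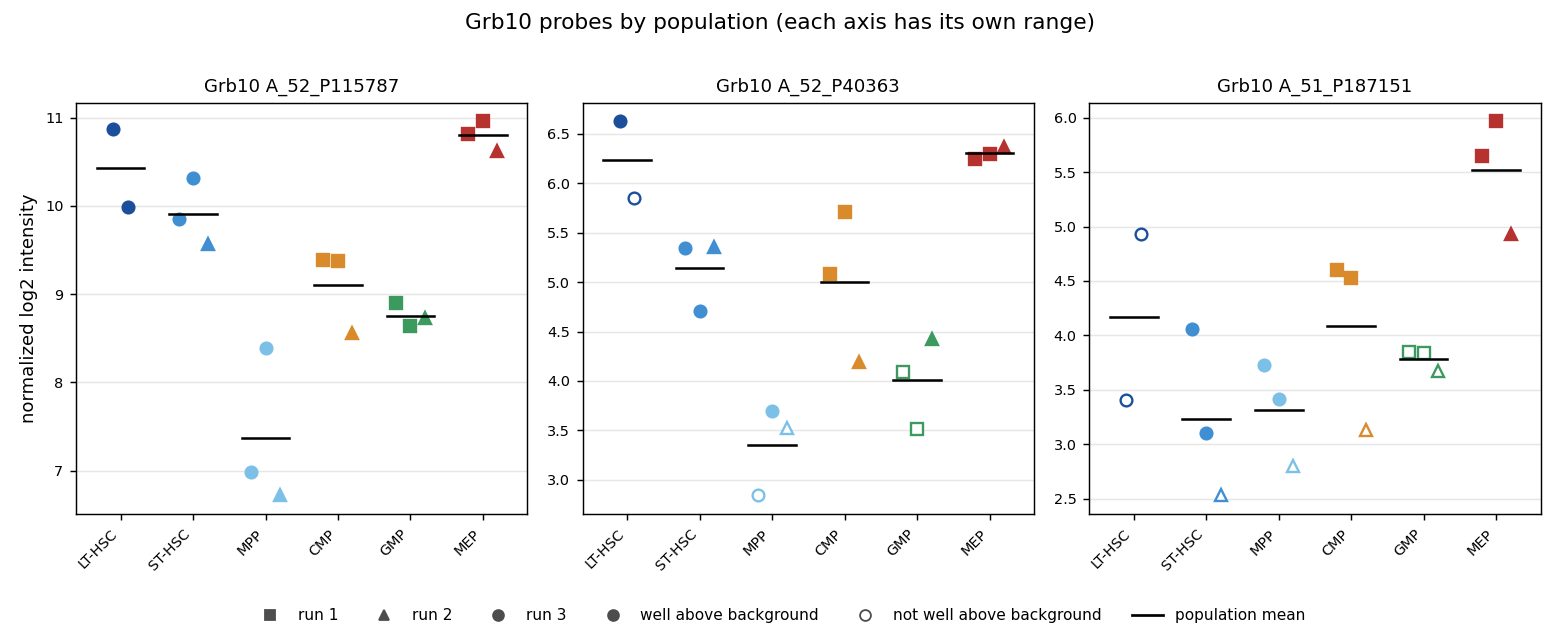
Normalized log2 intensity (vertical axes, each with its own range) of the 3 Grb10 probes by population, with symbols for runs, open symbols where the probe was not well above background, and black lines for population means. MEP arrays lay above CMP and GMP at all 3 probes, and MPP lay below every other population at A_52_P115787.

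Ndn, whose protein restrains the cell cycle, rose in HSC subsets with a small spread. Its probe read 6.94 and 6.97 in LT-HSC. It read 6.57, 6.14 and 5.68 in ST-HSC and 6.82, 6.74 and 6.13 in MPP. The 9 myeloid arrays ran from 4.68 through a median of 5.28 to 5.74, so that 1 ST-HSC array, of run 2, lay just under the highest MEP array, which was also of run 2. The log2 difference was 1.34 (standard error 0.15, adjusted p = 1.84e-05) and held on all arrays left out in turn (1.26 to 1.41). With scanning run as a term it was 0.58 (adjusted p = 0.0422) and within run 2 0.45 (adjusted p = 0.542).

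The order of the Ndn means was LT-HSC (6.95 ± 0.02, SD, n = 2), MPP (6.56 ± 0.37, n = 3), ST-HSC (6.13 ± 0.44, n = 3), MEP (5.43 ± 0.29, n = 3), CMP (5.31 ± 0.10, n = 3) and GMP (4.89 ± 0.33, n = 3). Of the neighbours in this order, LT-HSC and MPP did not overlap and the others did. LT-HSC lay 0.61 above ST-HSC and MPP (standard error 0.26), which was not called (adjusted p = 0.188), and MEP lay 0.32 above CMP and GMP (standard error 0.22, adjusted p = 0.393).

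Peg3 and Mest stayed at or near background in all 6 populations. The 3 Peg3 probes read 1.57 to 3.09 and the Mest probe 1.59 to 2.81 over the 17 arrays. The dimmest signal that counted as well above background was 2.45 to 5.67 on the log2 scale, depending on the array, so a level under it could not be seen. Of these 4 probes only Peg3 A_52_P235861 passed the flag, on 1 MPP array at 2.80, and none was called in the 3 comparisons or by the F-test as designed. Some alternatives called them: the probe A_52_P235861 lower in LT-HSC with run as a term (adjusted p = 0.0262) and higher in HSC subsets under the 75th percentile (0.0427), and Mest higher in LT-HSC under the 75th percentile (0.018). Over the arrays the Peg3 probe with the highest mean had r = 0.041 and 0.30 with the others.

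All 16 called differences kept their sign with normexp background correction and in the authors' own normalized table, and 14 were still called in each. Their sizes depended on this step. All 16 were smaller in both, 14 of them by over 1.5 times, and the leading Dlk1 difference of 2.64 was 0.61 with normexp and 1.03 in the authors' table. For dim probes a log2 difference therefore holds for the stated background handling.

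Other genes of the array with the most similar course over the 17 arrays were found by Pearson's r among 22605 probes well above background on at least 9 arrays. These r share the depth and run of the arrays and are given as descriptions. The leading Dlk1 probe was closest to 2900046G09Rik (0.97), AW555464 (0.96) and 2610027C15Rik (0.96), and Ndn to Htra3 (0.98), Apol9b (0.96) and C78339 (0.96). H19 was closest to 9330151L19Rik (0.95), Punc (0.94) and Amy1 (0.94), and Igf2 to a transcript named ENSMUST00000103344 (0.92), Eaf2 (0.92) and 2010001M09Rik (0.92). Plagl1 was closest to Krt8 (0.91), Zswim6 (0.88) and Aff4 (0.88), and Grb10 to Cd55 (0.92), Clca1 (0.91) and Sdsl (0.91). Among the members, the leading probes of Dlk1 and Ndn had r = 0.75, H19 and Ndn 0.78, Igf2 and Dlk1 0.69, and Grb10 and Dlk1 -0.23.

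The IGF pathway around Igf2 and Grb10 was read through 16 of 17 listed genes, each by its leading probe. In HSC subsets 7 rose and 1 fell, which is 50% of the list beside 41.3% of all probes. Igf2r, an imprinted receptor that takes up IGF2 for breakdown, was 1.57 higher (standard error 0.24, adjusted p = 0.000163), and Igf1, another ligand, was 0.98 higher (adjusted p = 0.000231). Igf1r, the signalling receptor, was 0.50 higher (adjusted p = 0.00795). Igfbp5, a binding protein, and Igfals, which stabilizes IGF complexes in the circulation, were also called higher, but were well above background on no myeloid array. Igfbp4, a further binding protein, was 1.28 lower (log2 difference -1.28, adjusted p = 0.0102). The insulin receptor gene Insr did not pass (0.13, adjusted p = 0.543).

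In LT-HSC 1 of the 16 was higher, 6.25% beside 6.92% of all probes. This was Igf2bp2, which encodes an RNA-binding protein (log2 difference 1.10, adjusted p = 0.0472). In MEP 1 rose and 3 fell, 25% of the list beside 20.1% of all probes. Igf2r was 2.96 higher (standard error 0.34, adjusted p = 2.73e-05), while Igfbp4, Igf2bp2 and Igfbp7 had log2 differences of -2.53, -1.18 and -0.96. The medians over the 16 genes were 0.32, -0.15 and -0.18 in the 3 comparisons, on the same log2 scale.

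Other imprinted genes gave a wider frame, with 52 of 54 listed names on the array and 45 of them well above background on at least 1 array. In HSC subsets 21 rose, 6 fell and 25 did not pass, with a median log2 difference of 0.28. The 51.9% called stand beside 41.3% of all probes. The leading genes were Sgce (3.39, adjusted p = 5.28e-09), which encodes a sarcoglycan, Asb4 (3.00) and Ppp1r9a (2.55). Usp29, Airn and H13 led the lower side, at -1.66, -1.43 and -1.31, but Airn was well above background on 1 of 8 HSC subset and 3 of 9 myeloid arrays, so its size rests mostly on undetected values. Usp29 differed by scanning run: it read 2.35 to 5.58 on the HSC subset arrays of run 3. On the run 2 arrays of ST-HSC and MPP it read 7.31 and 6.37. These lay above the CMP and GMP arrays of run 2 and below its MEP array, at 9.57. For the listed imprinted and IGF genes no fit with run as a term is given. In LT-HSC, Meg3 and Cdkn1c were higher (2 genes), Copg2 was lower (1 gene), and 49 did not pass, with 5.77% called beside 6.92% of all probes. In MEP the 21.2% called were near the 20.1% of all probes: 7 rose, led by Phlda2 at 4.74, Igf2r at 2.96 and Usp29 at 2.79, and 4 fell, with Sfmbt2 at least 1.43-fold lower and Osbpl5 and Sgce at -2.43 and -1.22.

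The neighbours of the members on the chromosome, that is, the listed imprinted genes whose leading probe lay within 1000 kb in mm9, were compared after the values had been seen. Meg3, a noncoding RNA 89.3 kb from Dlk1, had values of 6.89 and 6.42 in LT-HSC, 3.79 to 4.82 in ST-HSC and MPP and 2.29 to 4.19 in the myeloid populations. Its log2 difference was 2.48 for LT-HSC (standard error 0.39, adjusted p = 0.00219). No myeloid array had Meg3 well above background, so the difference of HSC subsets from them is a bound, at least 1.64-fold higher (adjusted p = 8.95e-05). Rian and Mirg, 2 further noncoding RNAs of that domain, were well above background on 1 and 0 arrays.

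Around H19 and Igf2, whose leading probes are 74.9 kb apart, Ins2, Th, Ascl2, Tssc4 and Kcnq1 were not called in any comparison. Cd81, Kcnq1ot1, Slc22a18 and Nap1l4 were called higher in HSC subsets, and none of them was called in LT-HSC. Cdkn1c, which encodes the cell cycle inhibitor p57 and lies 883 kb from H19, read 8.54 and 8.20 in LT-HSC, 6.59 to 7.98 in ST-HSC and MPP and 5.01 to 6.55 in the myeloid populations. Its log2 difference was 1.71 for HSC subsets (adjusted p = 5.7e-06) and 1.29 for LT-HSC (standard error 0.28, adjusted p = 0.0164). Phlda2, a pleckstrin homology domain gene of the same region, read 9.39 to 9.91 in MEP, 5.97 to 7.62 in CMP and 1.79 to 3.53 in GMP, where no array had it well above background, so that its MEP difference of 4.74 rests in part on undetected values.

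Usp29, 8.49 kb from the leading Peg3 probe, was well above background on 15 arrays, and it was 2.79 higher in MEP (adjusted p = 0.0184). Copg2, whose probe is under 1 kb from that of Mest, was well above background on all 17 arrays and read 9.14 and 6.52 in LT-HSC, the second on the dim array, against 9.18 to 10.22 elsewhere. Ddc, 116 kb from Grb10, had values of 3.99 in HSC subsets and 2.56 in myeloid populations (mean log2 intensities, adjusted p = 0.0436), but was well above background on only 5 of 8 and 1 of 9 arrays. Of the Ndn neighbours Magel2 and Mkrn3 were well above background on 5 and 4 arrays and not called, and Peg12 was 0.46 higher in HSC subsets (adjusted p = 0.0262).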

How the data were processed

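RNA of 17 sorted samples was hybridised by the authors to Agilent single-colour 4x44k arrays. The deposited scanner files give spot intensity values, processed by Feature Extraction 9.5.3.1 (run 1) or 10.2.1.3 (runs 2 and 3), and the deposited table gives log2 values that the authors quantile-normalized with limma. That table names spots by row number. Matched by row, each column had a Spearman correlation of 0.994 to 0.999 with the mean intensity of its own array. Probe positions are those of the mm9 files. Background-corrected intensities were log2-transformed, quantile-normalized between arrays, cleared of 1639 control spots and of outlier flags, and averaged per probe. As in the methods, limma (3.58.1, R 4.3.3) was used with lmFit and eBayes; 1 mean per population was fitted here over all 17 arrays, and p-values were adjusted over 41174 probes at 0.05. Where every array of a side lacked a well-above-background flag for a probe, only a bound was set. Nothing states that samples came from separate animals beyond the pools, so p-values measure the spread between these samples. Named genes were all member probes, the 3 listed imprinted and IGF genes with the largest called difference each way, and the 3 closest genes by r; Igf1, Igf1r, Insr and the chromosomal neighbours were named after their values were seen. Same-numbered myeloid arrays deviated together (6 pairs, r 0.13 to 0.34), as did all 8 same-numbered pairs within a run. Pairs of different numbers within a run did so too, such as ST-HSC 2 with MPP 3 (r = 0.33) and CMP 1 with GMP 2 (0.17). For GMP 1 with MEP 2 it was 0.09. In run 1 the number also goes with the slide, so pairing by number cannot be told apart from a shared run or slide. The 6 same-numbered pairs across runs had r at or under 0.1, so numbers do not pair HSC subsets with myeloid arrays. The members and lists were chosen with earlier results of these data known. Alternatives were the 75th percentile, normexp (offset 50), values from the authors' table, removal of probes with under 2 arrays well above background, run as a term, slide as a random block, a replicate block, gene means over probes, LT-HSC left out, each run alone and each array left out. The model was also tried on simulated data with independent noise and no run, slide or background effect. The simulation cannot show how such effects move the calls.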

Additional observations from a re-analysis of the deposited data

How the results depend on the processing

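Of the 414 values that alternatives gave for the 16 called differences, 362 kept their direction and stayed past the threshold, 46 kept only the direction and 6 had the opposite sign, and the cause was not tested. Those 6, HSC subsets against myeloid populations, were -0.13 (run as a term) and -0.088 (within run 2) for H19 A_51_P142196, -0.14 and -0.21 for H19 A_52_P571350, and -1.07 and -0.83 for Plagl1 A_51_P432034, for which no run 2 array was well above background, so that its sign there is no direction. In that comparison the 8 higher probes became 4 with run as a term, 5 with slide as a random block and 0 within run 2, which holds 5 arrays, and were 8 to 9 with 1 array left out. The 1 lower probe became 0 under the 75th percentile, with the slide block and within run 2, and 3 without both LT-HSC arrays; the range with 1 array left out was 0 to 2, from 0 without ST-HSC replicate 3 to 2 without MPP replicate 3. In LT-HSC the 3 higher probes numbered 6 after scaling to the 75th percentile, but 1 with the slide block (Igf2) and 1 within run 3, where none of the 3 was left and Dlk1 A_51_P135618 was gained (2 to 4 with an array left out). The 0 lower became 1 with run as a term, Peg3 A_52_P235861. In MEP the 3 higher became 0 within run 2 (2 to 3 with an array left out); the 1 lower became 0 with normexp, in the authors' table and within run 2, and 2 within run 1, with 0 without MEP replicate 1 and 2 without ST-HSC replicate 3. The F-test count of 8 ran from 6 to 12. Mean values over a gene's probes left all gene counts as they were.

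Arrays of the same replicate number deviated together within a run, as did pairs of different numbers there, and numbers did not pair HSC subsets with myeloid arrays. With a replicate block, which drops LT-HSC and the unnumbered arrays, the first comparison had 8 higher and 2 lower probes, with Grb10 A_52_P115787 now lower (-1.24, limma adjusted p = 0.0161), Peg3 A_52_P235861 now higher (adjusted p = 0.0401, with 1 array of the series well above background) and Dlk1 A_52_P177324 no longer called. MEP had 3 higher and 2 lower, with Plagl1 A_52_P532456 added (adjusted p = 0.0303). The block changed no other call. The F-test was not run for the replicate block or without LT-HSC.

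Over all probes, the calls between HSC subsets and myeloid populations went from 7478 higher and 9528 lower to 10854 and 6088 after scaling to the 75th percentile, 2826 and 3144 with run as a term and 4847 and 6988 with the slide block. For LT-HSC they went from 1906 and 945 to 5766 and 650 after that scaling, 1237 and 935 with normexp, 793 and 674 without dim probes, 2920 and 2787 with run as a term, 530 and 177 with the slide block and 215 and 47 within run 3. They were 1264 and 580 without MPP replicate 3, 3266 and 2652 without the LT-HSC 2-3 pool and 1030 and 197 without the dim LT-HSC array, where the lone LT-HSC array is assumed to vary like the other groups. For MEP 3861 and 4423 became 6386 and 5648 with run as a term and 5848 and 5258 within run 1. Within run 2 both comparisons had 0 calls. Levels under the well-above-background limit of an array cannot be ordered.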
